A study of Homo sapiens with 72 samples.

Results

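Mitochondrial ribosomal proteins are made from nuclear genes, translated in the cytosol and imported into mitochondria. Their mRNAs were taken as the rows of the count table whose symbol begins with MRPL or MRPS followed by a number, with an optional letter A to C. This rule found 78 rows among 44659 in all. Cytoplasmic RNA of A375, a line established from a human melanoma, was sequenced with QuantSeq, which reads a stretch at the 3′ end of each polyadenylated mRNA. Cells were transfected for 42 h with a pool of 2 siRNAs against CTU2 (siCTU2), a subunit of the enzyme that thiolates the wobble uridine of some tRNAs, or with the control siRNA GL2 (siGL2). In a second comparison glutamine was withheld for 18 h (mQ) or cells stayed in control medium that contained it (pQ). Each of the 4 conditions was then treated for 0, 3 or 5 h with the transcription inhibitor triptolide at 25 µM (T arm), or with triptolide plus the translation inhibitor cycloheximide at 100 µg/ml (TCHX arm). The 24 groups held 3 replicates each, 72 libraries in all. The labels give same-numbered libraries of all 4 conditions a shared code, whose meaning they do not state, and do not say that replicates were separate cultures, so p-values measure only the spread between these libraries, which may be technical.

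The mitochondrial ribosome translates the proteins encoded by mitochondrial DNA, all of them subunits of the respiratory chain and of ATP synthase. Many of its proteins descend from those of bacterial ribosomes. Others were added in mitochondria and surround a core of shortened ribosomal RNA. Its small subunit decodes the mRNA, and its large subunit forms peptide bonds and sits at the inner membrane.

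Libraries held 5987692 to 15534331 counts. CTU2 was at 1.01 to 2.95 CPM (counts scaled to a fixed library total) in the siCTU2 T arm at 0 h and at 21.1 to 24.2 CPM in siGL2. It reached 10.4 CPM in the library labelled siCTU2 TCHX 5 h replicate 3, which went against its label. That library, mQ T 5 h replicate 3 and pQ TCHX 0 h replicate 3 detected 19896 to 20364 genes, whereas the other 69 libraries detected 15507 to 17495. The 8 melanocyte-lineage markers examined summed to 722 to 1129 CPM in the T arm at 0 h. SOX10, MITF, S100B and DCT were high and PMEL was at 2.21 to 8.09 CPM. MLANA, TYR and TYRP1 were below 2 CPM in every one of these libraries. The 13 markers of other cell types summed to 4.46 to 9.56 CPM. Among these 13, the fibroblast marker LUM was at 2.23 to 8.86 CPM and 5 were at 0. The melanocyte-lineage sum was 779 to 978 CPM in siCTU2 and 978 to 1111 CPM in siGL2, and 722 to 891 CPM in mQ and 979.9 to 1129 CPM in pQ, and its part in the results below was not tested. In such bulk samples fewer cells of a type and less RNA per cell cannot be told apart.

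Of the 78 members, 72 had enough counts to be tested in every comparison and 6 did not. MRPS24 had 0 counts in all 72 libraries. In the GENCODE annotation of GRCh38 its gene, on chromosome 7 from 43866558 to 43869893 (minus strand), lies within the read-through gene URGCP-MRPS24. MRPL23 had 3 counts over all libraries, MRPS12 4, MRPS18B 11, MRPS28 41 and MRPL45 50. The table also had further names that mark extra copies of some of these genes. They held 69 counts for MRPL23, 231 for MRPS12, 153 over 6 names for MRPS18B and 535 for MRPL45. These are few beside the 12901 counts of MRPL50, the sparsest tested member apart from MRPS36. The levels of these genes are uncertain, and why their counts were low under every name was not tested. MRPS36, now known as a component of the oxoglutarate dehydrogenase complex rather than of the ribosome, was tested but was sparse, with at most 109 counts in a library and a further name with 59 counts.

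After CTU2 knockdown, mitochondrial ribosomal protein mRNAs moved in both directions at 0 h. Of the 72 tested, 9 were higher in siCTU2 than in siGL2 and 17 were lower (edgeR quasi-likelihood test, Benjamini-Hochberg adjusted p below 0.05 over all genes). Over all 12292 genes tested, 17.8% were higher and 18.2% lower (12.5% and 23.6% of members), so the members' share was below that of all genes for rises and above it for falls. Their median log2 fold change was -0.093, against 0.0048 over all genes. Summed over the members, counts made up 7909 ± 112 CPM in siCTU2 and 8165 ± 170.1 CPM in siGL2 (SD, n = 3). These sums overlapped between the groups (two-sided exact permutation p = 0.2, where 3 against 3 libraries cannot go below 0.1). Without siGL2 replicate 1 there were 3 rises and 13 falls, with no all-gene share beside them. In the TCHX arm at 0 h, a further 3 libraries of each condition, 5 rose and 24 fell, where 18.3% of all genes rose and 18.9% fell.

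The largest rise was that of MRPL51, a large subunit protein that mitochondria added to the bacterial set (chromosome 12, 6491886 to 6493841, minus strand, GENCODE, GRCh38). It was at 461, 415 and 426 CPM in siCTU2 and at 254, 237 and 237 CPM in siGL2, and the log2 fold change was 0.83 ± 0.069 (SE) on the log2 scale (edgeR adjusted p = 3.56e-08). The groups were far apart, and the TCHX arm at 0 h gave 0.70 (edgeR adjusted p = 6.69e-07). MRPL33, a small bacterial-type protein of the large subunit whose gene overlaps BABAM2 on the same strand, was at 173, 184 and 142 CPM in siCTU2 and 107, 107 and 102 CPM in siGL2. Its log2 fold change was 0.65 ± 0.092 (SE) on the log2 scale (edgeR adjusted p = 1.92e-05). Again the groups did not overlap, and the TCHX arm gave 0.56 (edgeR adjusted p = 0.000283). MRPL39, a large subunit protein specific to mitochondria, was at 30.3, 24.0 and 22.8 CPM against 18.0, 22.5 and 15.9 CPM, and its log2 fold change was 0.44 ± 0.16 (SE) on the log2 scale (edgeR adjusted p = 0.0401). The groups nearly touched. The call was lost in the TCHX arm (0.42, edgeR adjusted p = 0.0808) and without siCTU2 replicate 1, siGL2 replicate 1 or siGL2 replicate 3, where log2 fold changes were 0.30, 0.40 and 0.33 (adjusted p = 0.209, 0.119 and 0.157).

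The other named rises were small. MRPL38, another large subunit protein specific to mitochondria, was at 85.7, 73.3 and 80.9 CPM in siCTU2 and 69.3, 61.6 and 67.9 CPM in siGL2, and its log2 fold change was 0.27 ± 0.094 (SE) on the log2 scale (edgeR adjusted p = 0.034). MRPL27, a bacterial-type protein near the peptidyl transferase centre, was at 148, 155 and 159.6 CPM against 137, 118 and 129.9 CPM (log2 fold change 0.26 with SE 0.081, edgeR adjusted p = 0.0158). MRPL17, also of bacterial type, was at 103, 96.2 and 101 CPM against 86.0, 85.6 and 81.9 CPM (log2 fold change 0.24 with SE 0.082, edgeR adjusted p = 0.0287). All replicates of these 3 mRNAs were higher in siCTU2, but each call was lost when single libraries were left out. MRPL27 was lost only without siGL2 replicate 2 (log2 fold change 0.20, adjusted p = 0.0954). MRPL38 was lost without siCTU2 replicate 1, siCTU2 replicate 3 or any of the siGL2 replicates, where log2 fold changes were 0.21, 0.26, 0.29, 0.22 and 0.28 (adjusted p = 0.141, 0.074, 0.0614, 0.137 and 0.063). MRPL17 was lost without the same 5 libraries, at 0.22, 0.23, 0.25, 0.25 and 0.22 (adjusted p = 0.0875, 0.0708, 0.0739, 0.0595 and 0.0961), and in the TCHX arm (0.23, edgeR adjusted p = 0.0528).

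The 6 largest falls were called under every alternative. MRPS18A, which is related to bacterial S18 but sits in the large subunit and is counted here with the proteins specific to mitochondria (chromosome 6, 43671202 to 43687791, minus strand), was at 72.5, 82.3 and 78.7 CPM in siCTU2 and 152, 129 and 138 CPM in siGL2, and its log2 fold change was -0.85 ± 0.087 (SE) on the log2 scale (edgeR adjusted p = 5.41e-07). MRPS25, a small subunit protein specific to mitochondria, was at 43.3, 52.2 and 59.3 CPM against 78.0, 77.7 and 109 CPM (log2 fold change -0.77 with SE 0.13, edgeR adjusted p = 0.000174). MRPL20, a bacterial-type protein that binds ribosomal RNA early in assembly, was at 231, 239.8 and 214 CPM against 379, 385 and 354 CPM (log2 fold change -0.71 with SE 0.071, edgeR adjusted p = 3.29e-07). No siCTU2 replicate of these mRNAs reached the lowest siGL2 replicate. MRPL53, whose gene overlaps CCDC142 on the same strand, was at 111, 83.3 and 85.6 CPM against 149.9, 138 and 156 CPM (log2 fold change -0.67 with SE 0.10, edgeR adjusted p = 4.37e-05). MRPS14, a bacterial-type protein of the small subunit head, was at 34.7, 39.8 and 35.8 CPM against 47.2, 58.1 and 48.9 CPM (log2 fold change -0.49 with SE 0.11, edgeR adjusted p = 0.00279). MRPL37, a large subunit protein specific to mitochondria, was at 78.8, 89.8 and 90.6 CPM against 116, 125 and 119.6 CPM (log2 fold change -0.48 with SE 0.085, edgeR adjusted p = 0.000221). All 6 falls were called in the TCHX arm as well, at log2 fold changes of -0.70, -0.84, -0.84, -0.70, -0.90 and -0.59 in the same order.

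**Figure D1:**
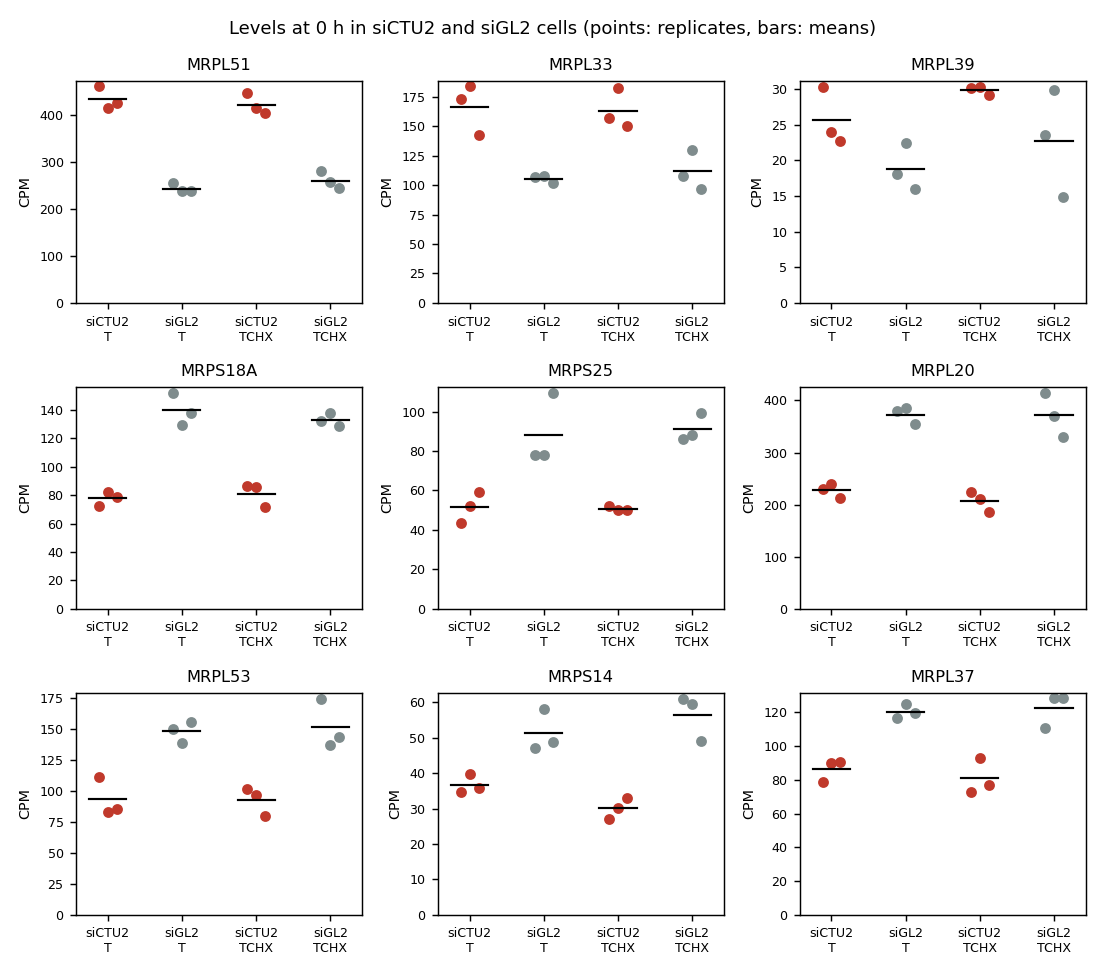
CPM at 0 h of 9 members that moved with siCTU2, in the T and TCHX arms. Points are replicates and bars are means; MRPL51 lay between 415 and 461 CPM in siCTU2 and between 237 and 254 CPM in siGL2 in the T arm, and MRPS18A between 72.5 and 82.3 CPM against 129 to 152 CPM.

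Promoters of the members often held a short motif. RefSeq promoters (GRCh38.p14, 250 bases before to 50 after the transcription start) were matched for 69 members. The letters CCGGAAG, the core bound by ETS family factors such as GABP, a known activator of nuclear genes for mitochondrial proteins, were present on either strand in 29 of them (42%), against 10.7% of all 27305 promoters. The NRF1 core GCATGCGC was in 6 (8.7%, against 3.27%) and TATAAA in 2 (2.9%, against 12%). CACGTG, a sequence bound by MYC among others, was in 6 (8.7%, against 7.43%), and CCAAT in 20 (29%, against 35.7%). The 120 bases before the start are shown for 3 members because they carry the ETS core and are those of mRNAs that moved in opposite directions above, MRPL51 upward and MRPL20 and MRPL53 downward. Capitals mark the core on either strand. The windows are chr12:6493263-6493382 (minus strand), chr1:1407294-1407413 (minus strand) and chr2:74472681-74472800 (minus strand). The starts are those of RefSeq, and the MRPL51 window lies wholly inside the gene as GENCODE places it above.
MRPL51: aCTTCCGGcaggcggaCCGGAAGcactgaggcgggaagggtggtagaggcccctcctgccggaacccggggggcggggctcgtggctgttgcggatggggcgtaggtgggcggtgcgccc
MRPL20: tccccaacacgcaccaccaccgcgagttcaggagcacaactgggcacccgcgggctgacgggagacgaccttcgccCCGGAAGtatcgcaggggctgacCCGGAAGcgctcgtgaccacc
MRPL53: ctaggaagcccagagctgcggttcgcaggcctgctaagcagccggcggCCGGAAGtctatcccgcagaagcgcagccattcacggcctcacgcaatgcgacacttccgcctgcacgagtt
Among promoters of members that were lower in siCTU2, 8 of 16 held the core, as did 6 of 9 of those that were higher and 14 of 40 of those not called.

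The siRNAs were read as the sense strands given with the study, without their overhangs. They are shown because siCTU2 and siGL2 cells received different sequences. Capitals mark the 7 bases of an mRNA that pair with bases 2 to 8 of the antisense strand.
siCTU2#1: cuaucaagcucAUGACCAa
siCTU2#2: gcgugaacaugAAGGACUu
siGL2: cguacgcggaaUACUUCGa
The letters marked in siCTU2#2 were found in the 3′ UTR (GENCODE canonical transcript) of 4 of 17 members that were lower in siCTU2, namely MRPL19, MRPL30, MRPS23 and MRPS25. They were in 1 of 9 that were higher (MRPL17), in 5 of 46 that were not called and in 11.7% of 19063 genes. Those of siCTU2#1 were in 0 of the 17 lower members and in 4 of 46 not called, and those of siGL2 in none of the members. Median 3′ UTR lengths were 433 bases in members lower in siCTU2, 254 in those higher, 592 in those not called and 1061 over all genes. The shares above are therefore not compared at equal length. A match is a description of letters, and its part in any change was not tested.

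By place in the ribosome, 1 rose and 2 fell among 13 tested small subunit proteins conserved from bacteria, with a median log2 fold change of -0.027. Among small subunit proteins specific to mitochondria, 1 rose and 4 fell of 9 (median -0.13). In the large subunit, 4 rose and 7 fell of 29 conserved proteins (median -0.077), and 3 rose and 4 fell of 20 proteins specific to mitochondria (median -0.15). MRPS36 was placed in no class. Each class held rises and falls, where 17.8% of all genes rose and 18.2% fell. The ranked log2 fold changes of all 72 mRNAs show this spread for both 0 h comparisons.

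**Figure D2:**
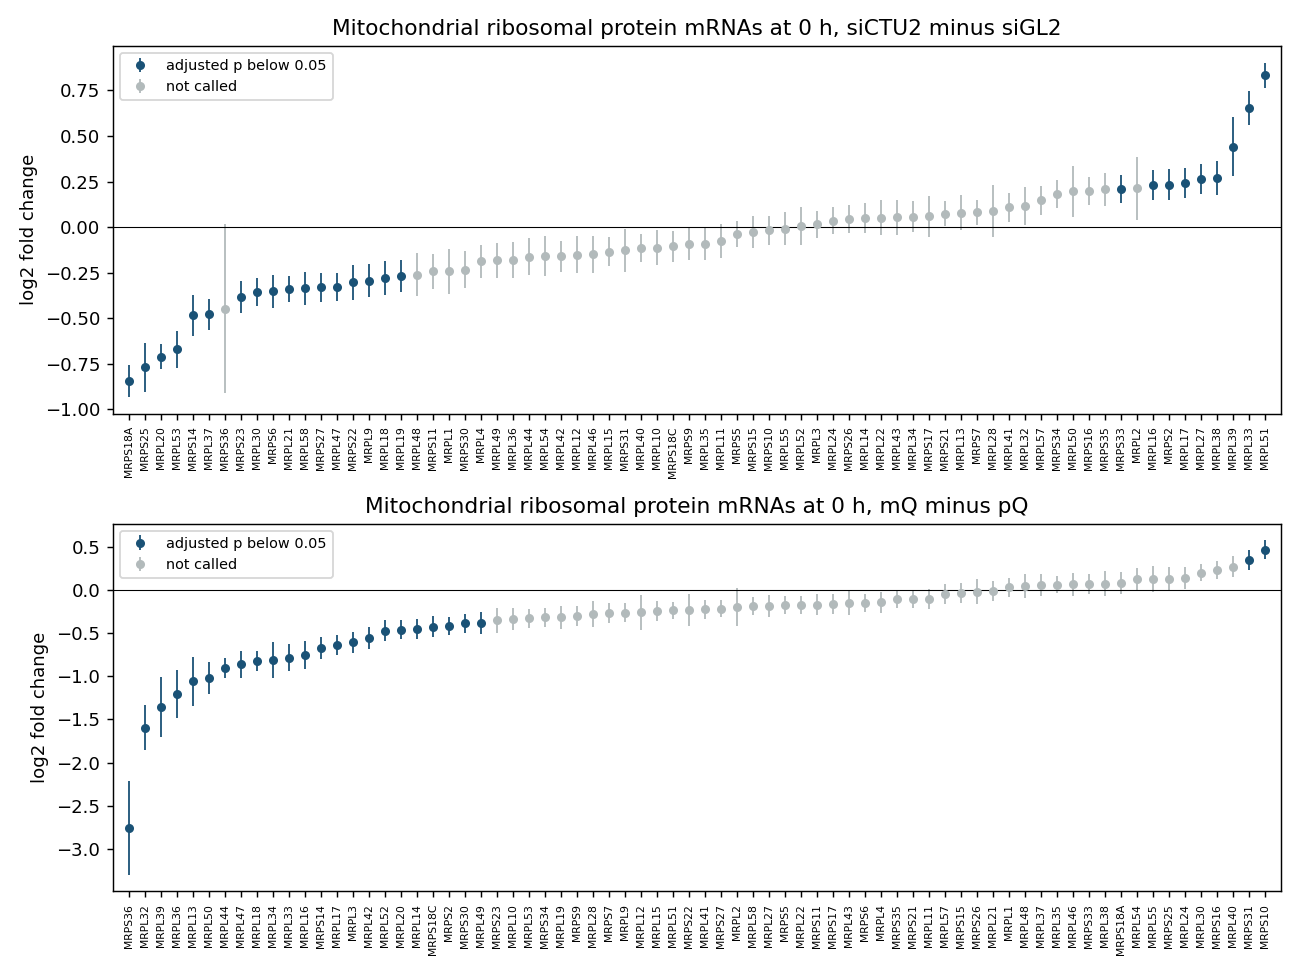
Log2 fold change at 0 h of each tested member with its standard error, ranked, for siCTU2 minus siGL2 (top) and mQ minus pQ (bottom). Dark points passed an adjusted p of 0.05; with siCTU2 they lie at both ends, from -0.85 to 0.83, and with mQ 23 of 25 lie below 0.

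Other genes of mitochondrial translation were examined in the same comparison. Among 5 mitoribosomal proteins under other symbols, AURKAIP1 alone was called (-0.29, edgeR adjusted p = 0.0014). Of 12 mitochondrial translation factors, 1 rose, the initiation factor MTIF3 (0.29, edgeR adjusted p = 0.0432), and 1 fell, the elongation factor GFM1 (-0.34, edgeR adjusted p = 0.00417). Of 23 factors of mitoribosome assembly and ribosomal RNA modification, 3 rose and 0 fell, from MRM2, a ribosomal RNA methyltransferase (0.27), to NGRN, an assembly factor (0.53, edgeR adjusted p = 0.000436). Of 10 genes of mitochondrial transcription and RNA stability, 1 rose, LRPPRC, which stabilises mitochondrial mRNAs (0.24), and 4 fell, most of all TFAM, which packages and transcribes mitochondrial DNA (-0.55, edgeR adjusted p = 3.38e-05). Of 9 regulators of mitochondrial gene expression, 1 rose, GABPB1, a subunit of GABP (0.62, edgeR adjusted p = 0.00216), and 3 fell, most of all the coactivator PPARGC1A (-2.23, edgeR adjusted p = 0.00022). The same backgrounds of 17.8% and 18.2% apply to these lists.

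More of these mRNAs were lower in mQ than were higher. Of 72 tested, 23 were lower in mQ than in pQ and 2 were higher, where 12.4% and 12.5% of all 12374 genes were called lower and higher (31.9% and 2.78% of members). The members' median log2 fold change was -0.22, against 0.0098 over all genes, and 55 of 72 lay below that of all genes. In the TCHX arm at 0 h, 5 were lower and 0 higher, with a median of -0.18, where 2.65% and 3.82% of all genes were. Without pQ replicate 3 of that arm, which detected more genes than its group and was left out after seeing the data, 25 were lower and 3 higher, with a median of -0.25, against 9.71% and 10.4% of all genes. The members' counts summed to 7326 ± 225 CPM in mQ and 8858 ± 309.8 CPM in pQ (SD, n = 3), a difference of -17.3%. No mQ library reached the lowest pQ library (two-sided exact permutation p = 0.1, the smallest that 3 against 3 can give). Leaving out pQ replicate 1 or pQ replicate 2 left 16 and 14 calls in place of 25, with no all-gene share beside them.

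The 6 largest falls were larger in the T arm than in the TCHX arm. MRPS36 was at 1.49, 0.0951 and 1.12 CPM in mQ and 4.94, 5.67 and 7.62 CPM in pQ, near the floor of these libraries, and its log2 fold change was -2.76 ± 0.55 (SE) on the log2 scale (edgeR adjusted p = 0.00436). MRPL32, a zinc-binding bacterial-type protein whose processing by a mitochondrial protease precedes ribosome assembly (chromosome 7, 42932376 to 42948958, plus strand), was at 21.4, 9.99 and 27.0 CPM in mQ and 55.0, 68.7 and 58.1 CPM in pQ, and its log2 fold change was -1.60 ± 0.26 (SE) on the log2 scale (edgeR adjusted p = 0.00168). MRPL39 was at 13.7, 5.04 and 19.8 CPM in mQ and 34.0, 41.3 and 26.1 CPM in pQ (log2 fold change -1.35 with SE 0.35, edgeR adjusted p = 0.0158). In each of these mRNAs replicate 2 was the lowest mQ library. MRPL36, a small bacterial-type protein, was at 39.8, 17.7 and 54.4 CPM in mQ and 91.2, 91.6 and 82.9 CPM in pQ (log2 fold change -1.20 with SE 0.28, edgeR adjusted p = 0.00934). MRPL13, a bacterial-type protein of the large subunit, was at 66.0, 25.7 and 78.1 CPM in mQ and 123, 136 and 106 CPM in pQ (log2 fold change -1.06 with SE 0.29, edgeR adjusted p = 0.0199). MRPL50, specific to mitochondria, was at 9.90, 9.04 and 13.7 CPM in mQ and 23.7, 22.4 and 22.5 CPM in pQ (log2 fold change -1.02 with SE 0.19, edgeR adjusted p = 0.0031). No mQ replicate of these mRNAs reached the lowest pQ replicate. In the TCHX arm the log2 fold changes were -0.73 for MRPS36, -0.37 for MRPL32, 0.089 for MRPL39, -0.27 for MRPL36, 0.019 for MRPL13 and -0.18 for MRPL50, and none was called. Leaving out pQ replicate 3 there gave -1.17, -0.81, -0.43, -0.41, -0.28 and -0.35 in the same order, of which MRPL32 (adjusted p = 3.28e-05), MRPL36 (adjusted p = 0.00924) and MRPL13 (adjusted p = 0.0449) were called. The T arm calls of MRPL39 and MRPL13 were also lost without mQ replicate 1, pQ replicate 1 or pQ replicate 2 and with DESeq2. MRPL39 then had log2 fold changes of -1.40, -1.35, -1.18 and -1.35 (adjusted p = 0.0575, 0.0537, 0.0769 and 0.0615), and MRPL13 of -1.17, -1.05, -0.97 and -1.05 (adjusted p = 0.0523, 0.065, 0.0814 and 0.0817).

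The same mRNAs were also low in libraries that glutamine does not set apart. MRPL13 was at 115, 113 and 15.9 CPM in the 3 replicates of siCTU2 T 5 h, 127, 111 and 18.2 CPM in siGL2 T 5 h and 141, 114 and 22.3 CPM in pQ T 5 h, so replicate 3 stood far below the others. In the library labelled siCTU2 TCHX 5 h replicate 3 it was at 58.0 CPM, and replicate 2 of that group was lower still at 44.5 CPM. MRPL32 was at 43.0, 38.6 and 10.1 CPM in siCTU2 T 5 h, 45.3, 43.3 and 6.13 CPM in siGL2 T 5 h and 45.0, 50.1 and 6.38 CPM in pQ T 5 h, again lowest in replicate 3. The plot of MRPL13, MRPL32, MRPL36 and MRPL39 over all libraries shows the shared low points.

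**Figure D3:**
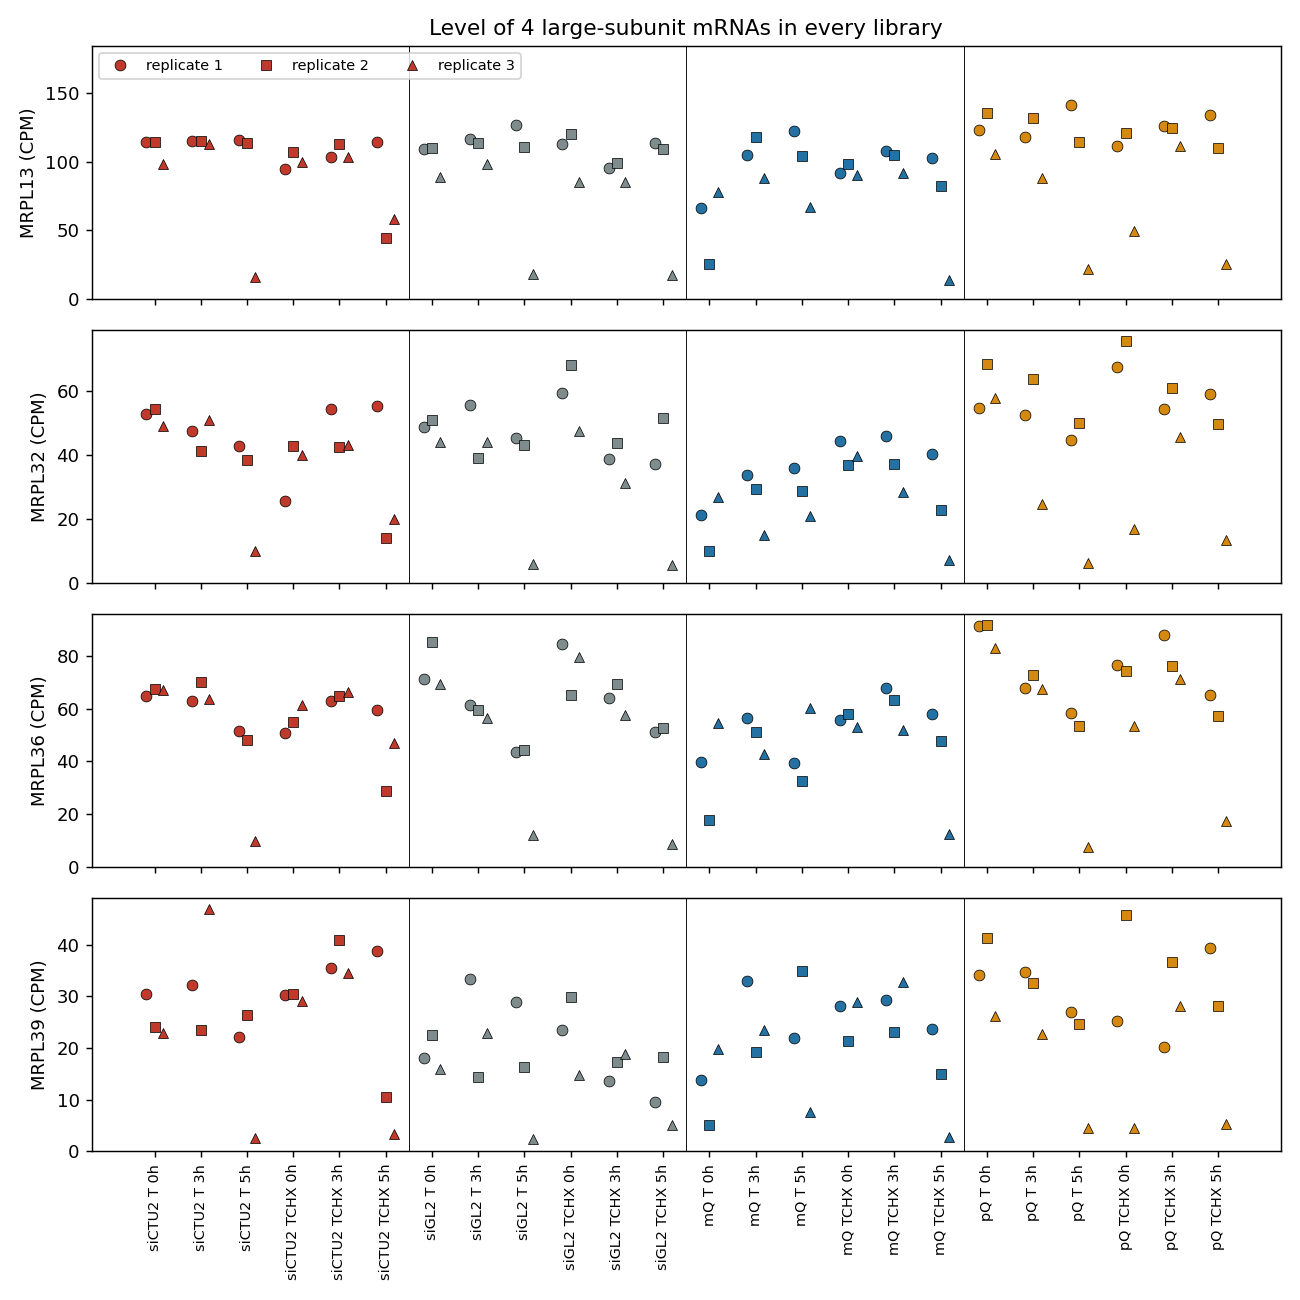
CPM of MRPL13, MRPL32, MRPL36 and MRPL39 in all 72 libraries, by condition, arm and hours of treatment; marker shape gives the replicate number and colour the condition. The low points are shared between the 4 mRNAs: replicate 3 at 5 h in most groups (MRPL13 between 13.8 and 25.7 CPM in 6 of 8), mQ T 0 h replicate 2 (25.7 CPM) and pQ TCHX 0 h replicate 3 (49.8 CPM).

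The shift of replicate 3 at 5 h was taken as the log2 ratio of its CPM to the mean CPM of replicates 1 and 2 (1 CPM added to each), as the median over the 8 groups. It was below -1 for 18 of 72 members (25.0%), against 7.86% of all genes, and for 0 members at 0 h and at 3 h. The lowest were MRPL13 (-2.52), MRPL39 (-2.46), MRPS36 (-1.99), MRPL32 (-1.96) and MRPL36 (-1.89), and the highest was MRPS26 (0.95). Of the 23 members lower in mQ, 13 had a shift below -1. Across the 72 members this shift went with the log2 fold change of mQ against pQ in the T arm at 0 h (Pearson's r = 0.74, Spearman's rho = 0.73), and less with that of the TCHX arm without pQ replicate 3 (r = 0.36, rho = 0.34) and with that of siCTU2 against siGL2 (r = -0.079, rho = 0.03). Over all 12374 genes the first of these was r = 0.44 and rho = 0.48. These are descriptions across genes, which share libraries and are not independent. Members with a shift of -1 or above, a split made after seeing the data, numbered 54, of which 10 were lower in mQ and 2 higher, with a median of -0.15. Over all genes tested, without such a split, 12.4% were lower and 12.5% higher. The all-gene share under the same split is not given. The part of library differences in the mQ result was not tested.

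**Figure D4:**
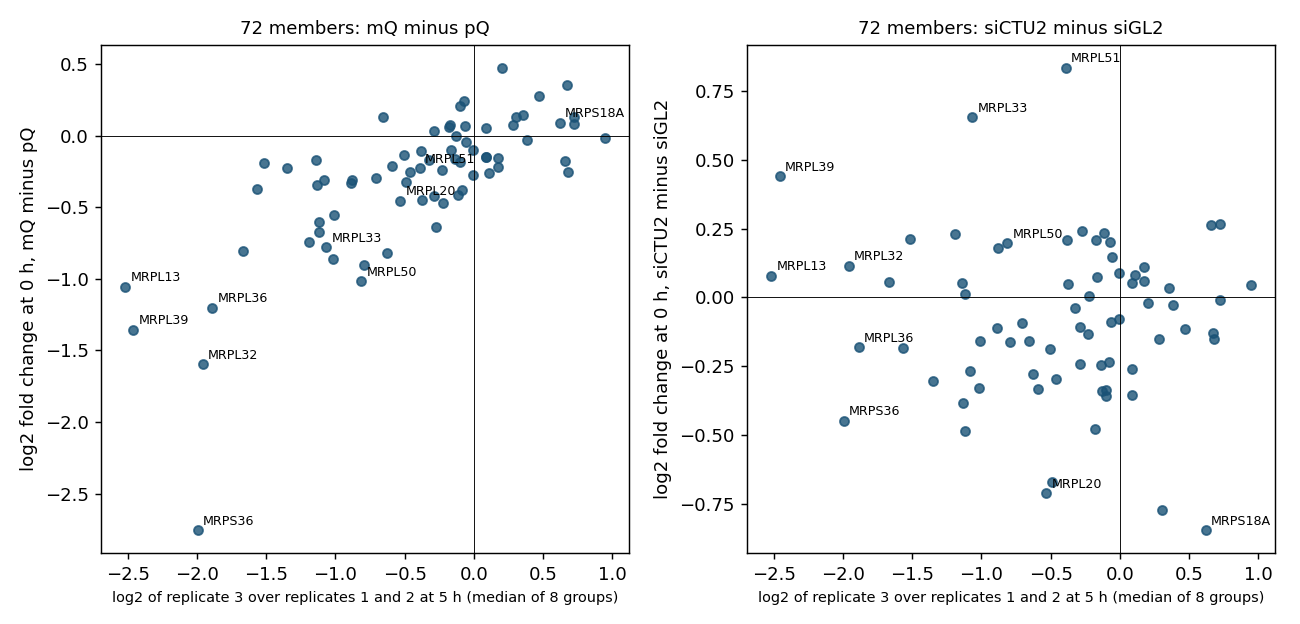
Each point is 1 of 72 members. The x axis is the log2 shift of replicate 3 at 5 h and the y axis the log2 fold change at 0 h, for mQ minus pQ (left) and siCTU2 minus siGL2 (right). On the left the members that shifted most are also those lowest in mQ (r = 0.74), while on the right the points show no such order (r = -0.079).

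Members lower in mQ had 3′ ends of lower GC content than the other members, close to the median of all genes. The GC content of the last 300 bases of the GENCODE canonical transcript, near which QuantSeq reads, had a median of 36.7% over the 23 members lower in mQ and of 45.0% over the other tested members, and of 38.0% over all genes with a value. All 72 tested members and 87.5% of all genes had a value. Across members, GC content and the 5 h shift had r = 0.40 and rho = 0.43, and GC content and the mQ log2 fold change r = 0.35 and rho = 0.34. Over all 10830 genes with a value these were r = 0.24 and 0.20. MRPL32, the most lowered ribosomal member, had 28.0% GC in this stretch, MRPL39 34.7%, MRPL13 40.3%, MRPL36 43.0% and MRPS26 50.7%. MRPS31, one of the 2 members higher in mQ, had 24.0%.

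The 23 members lower in mQ were followed in the later libraries, which did not enter their choice but carry the same replicate codes. Their median difference of log2(CPM + 1) between mQ and pQ was -0.38 in the T arm at 3 h, with 23 of 23 below 0. It was -0.25 in the TCHX arm at 3 h (20 below 0) and -0.47 at 5 h (23 below 0). In the T arm at 5 h it was 0.10 (11 below 0), and -0.37 (20 below 0) without replicate 3. Replicate 3 of mQ T 5 h is one of the 3 libraries that detected more genes. At 0 h the median was -0.81 in the T arm, where these members were chosen, and -0.19 in the TCHX arm. Most of these mRNAs were thus lower in mQ at both later times in the TCHX arm and at 3 h in the T arm, by less than in the T arm at 0 h. Counts summed over all members were lower in mQ there too. They averaged 7798 CPM in mQ and 8986 CPM in pQ in the T arm at 3 h. In the TCHX arm they averaged 7773 against 9009 CPM at 3 h and 7550 against 8645 CPM at 5 h. Such medians were not set beside those of the other members or of all genes, so they do not set the 23 apart.

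A few members had like values in both arms. MRPL52, MRPS2 and MRPL20 are named after their values were seen. MRPL52, specific to mitochondria, was at 61.1, 67.4 and 58.8 CPM in mQ and 96.5, 77.7 and 94.7 CPM in pQ in the T arm (log2 fold change -0.47 with SE 0.12, edgeR adjusted p = 0.0158), and the TCHX arm gave -0.70 (edgeR adjusted p = 0.00867). MRPS2, a bacterial-type small subunit protein, was at 74.0, 73.6 and 70.1 CPM against 90.9, 106 and 104 CPM (log2 fold change -0.41 with SE 0.11, edgeR adjusted p = 0.0161), and the TCHX arm gave -0.50 (edgeR adjusted p = 0.026). MRPL20 was at 276, 245 and 243 CPM against 395, 369 and 323 CPM (log2 fold change -0.45 with SE 0.11, edgeR adjusted p = 0.00952), with -0.35 in the TCHX arm (adjusted p = 0.0739). Thus the first 2 were called in both arms, and MRPL20 was called in the T arm. MRPS10, a bacterial-type protein of the small subunit, rose from 154, 165 and 152 CPM in pQ to 194, 233 and 203 CPM in mQ (log2 fold change 0.47 with SE 0.11, edgeR adjusted p = 0.00846). The groups did not overlap, and the TCHX arm gave 0.29 (edgeR adjusted p = 0.165). MRPS31, specific to mitochondria, was at 47.1, 43.8 and 47.9 CPM in mQ and 38.6, 35.0 and 39.0 CPM in pQ (log2 fold change 0.35 with SE 0.12, edgeR adjusted p = 0.0497). This call lay at the threshold and was lost in 11 of 12 alternatives, each left-out library but mQ replicate 2 among them, with log2 fold changes of 0.30 to 0.38.

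The siCTU2 and mQ comparisons share no library. MRPL18, MRPL20, MRPL47 and MRPS14 were lower in both, 4 of the 17 lower in siCTU2 and of the 23 lower in mQ (5.56% of members, against 2.67% of the 11968 genes tested in both). MRPL16, MRPL17, MRPL33, MRPL39 and MRPS2 were higher in siCTU2 and lower in mQ, 5 of the 9 higher in siCTU2 (6.94% of members, against 2.87% of all genes). No member was higher in both, nor lower in siCTU2 and higher in mQ, where 2.61% and 2.43% of all genes were. These shares depend on how many members were called in each comparison, and few were higher in mQ. Whether the overlap differs from what those counts alone would give was not tested.

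By place in the ribosome, 12 of 29 conserved large subunit mRNAs were lower in mQ and 0 higher (median log2 fold change -0.27). Of large subunit mRNAs specific to mitochondria, 7 of 20 fell and 0 rose (median -0.20). In the small subunit 3 of 13 conserved mRNAs fell and 1 rose (median -0.17), and 0 of 9 specific to mitochondria fell and 1 rose (median -0.10). The remaining fall was that of MRPS36. All-gene shares were 12.4% lower and 12.5% higher, for these classes and for the lists that follow. Of the 23 members that fell, 13 had a replicate 3 shift at 5 h below -1, and its part in these class counts was not tested. Among the related lists, CHCHD1 was the member of mitoribosomal proteins under other symbols that was called (-0.43, edgeR adjusted p = 0.0168). Of 12 translation factors, 1 rose, the initiation factor MTIF2 (0.47), and 3 fell, most of all the methionyl-tRNA formyltransferase MTFMT (-0.77). Of 23 assembly and modification factors, 1 rose and 4 fell, from the helicase DHX30 (-0.38) to the ribosome-binding factor RBFA (-0.83). Of 10 genes of transcription and RNA stability, 0 rose and 3 fell, from SLIRP, the partner of LRPPRC (-0.43), to the transcription factor TFB2M (-1.23). Of 9 regulators, 0 rose and 2 fell, GABPB1 (-0.56, edgeR adjusted p = 0.0153) and MYC (-1.45, edgeR adjusted p = 0.00906). GABPB1 was thus higher in siCTU2 and lower in mQ.

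The gene families most alike in function are set beside the members. In siCTU2, 21 rose and 7 fell of 78 cytosolic ribosomal protein mRNAs (median 0.066) and 16 rose and 5 fell of 71 respiratory chain subunit mRNAs (median 0.073), beside 9 and 17 of 72 members (median -0.093). In mQ, 11 rose and 6 fell of 78 cytosolic ribosomal protein mRNAs (median 0.027) and 1 rose and 19 fell of 71 respiratory chain subunit mRNAs (median -0.19), beside 2 and 23 of 72 members (median -0.22). Among all genes tested, 17.8% rose and 18.2% fell in siCTU2, and 12.5% rose and 12.4% fell in mQ. The differences between these lists were not tested.

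After transcription was stopped, the members fell by somewhat less than the median gene. Decay was the mean log2 change at 3 h and 5 h from 0 h in the T arm, with counts scaled to stable genes, which are genes whose CPM rose at 3 h or 5 h in both arms of every replicate. On this scale 56 of 72 members fell in siCTU2 (median -0.59, over all genes 62.6%, median -0.71). In siGL2 30 of 72 fell, with a median of -0.46, where 47.5% of all genes fell with a median of -0.59. In mQ 42 fell (median -0.47), against 58.6% of all genes (median -0.66), and in pQ 53 fell (median -0.59), against 64.3% (median -0.71). No member was called higher in any condition. When a stable gene had to pass at both 3 h and 5 h, 65 fell in siGL2 and 68 in mQ, and a replicate block gave 47 in siGL2. With TMM scaling, which sets the typical mRNA to no change, there were 15 higher and 2 lower in siCTU2, 8 higher and 2 lower in siGL2, 5 higher and 3 lower in mQ and 13 higher and 4 lower in pQ. On that scale the median of all genes lay between -0.021 and 0.018, and the members' median between 0.076 and 0.20. The counts under these other settings have no all-gene share beside them, so they do not set the members apart.

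In single libraries the median member stood at 66.6, 75.7 and 36.6% of its 0 h level after 5 h in the 3 siCTU2 replicates, at 75.9, 76.2 and 47.5% in siGL2, at 68.9, 70.2 and 84.0% in mQ and at 76.2, 69.1 and 47.0% in pQ. Over all genes the medians were 57.9, 63.8 and 34.8% in siCTU2 and 65.8, 66.3 and 44.3% in siGL2. They were 56.7, 58.7 and 75.9% in mQ and 66.0, 62.6 and 46.1% in pQ. Replicate 3 was the lowest in siCTU2, siGL2 and pQ, for the members and for all genes. In siGL2 the count of falling members moved with single replicates. It was 10 without replicate 1, 8 without replicate 2 and 56 without replicate 3. Without the libraries that detected more genes, counts were 53 in siCTU2, 44 in mQ and 56 in pQ. Counts dropped without replicate 1 in siCTU2 (19), without replicate 1 or 2 in mQ (20 and 12) and without replicate 1 or 2 in pQ (33 and 22). All-gene shares are not set beside these left-out counts, so they do not set the members apart. Of the 72 members, 26 fell in all 4 conditions and 7 in none (MRPL13, MRPL28, MRPL33, MRPL37, MRPL39, MRPL52 and MRPL54), which is 36.1% and 9.72% of members, against 39.3% and 17.3% of the 12605 genes tested in every condition.

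The fastest decay by the mean over the 4 conditions was that of MRPL44, specific to mitochondria and with a ribonuclease III fold (chromosome 2, 223957463 to 223967714, plus strand). In pQ it was at 96.2, 113 and 91.0% of its mean 0 h level in the 3 libraries at 0 h, at 44.9, 45.4 and 29.8% at 3 h and at 26.6, 28.7 and 13.9% at 5 h. The log2 changes were -1.34 in siCTU2, -1.47 in siGL2, -1.55 in mQ and -1.72 in pQ, called in all 4. The sparse MRPS36 lay further below 0 in siCTU2 and pQ, with log2 changes of -1.73 in siCTU2, -0.55 in siGL2, 1.58 in mQ and -2.23 in pQ, of which that in pQ alone was called. MRPS30, which despite its name sits in the large subunit (chromosome 5, 44808947 to 44820428, plus strand), went from 98.3, 100.1 and 102% to 46.1, 46.3 and 40.3% at 3 h and 35.3, 33.4 and 23.3% at 5 h in pQ. Its log2 changes were -1.23 in siCTU2, -1.29 in siGL2, -1.19 in mQ and -1.44 in pQ. MRPS31 fell by 0.79, 1.21, 1.28 and 1.18 on the log2 scale and MRPL46, a large subunit protein specific to mitochondria, by 0.86, 0.96, 1.16 and 1.12, in the same order of conditions. All 16 of these values were called (edgeR, largest adjusted p = 0.00192). With TMM scaling the log2 changes of MRPL44 and MRPS30 stayed below 0 and were called in every condition, from -1.03 to -0.67 and from -0.75 to -0.54, while MRPS31 was called in mQ and MRPL46 in pQ.

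The slowest decay by the same mean was that of MRPL12, the factor-binding stalk protein of the large subunit. Its log2 changes were 0.17 in siCTU2, 0.058 in siGL2, -0.50 in mQ and 0.068 in pQ, and it was called lower in mQ alone (adjusted p = 0.0479). In pQ it was at 100.4, 91.7 and 72.4% at 3 h and 99.8, 92.4 and 182% at 5 h, replicate 3 standing high at 5 h. MRPL28, of bacterial type and overlapping PGAP6 on the same strand, had log2 changes of -0.15 in siCTU2, -0.095 in siGL2, -0.26 in mQ and -0.15 in pQ, none of them called. MRPL48 had -0.23 in siCTU2, -0.12 in siGL2, -0.46 in mQ and -0.16 in pQ, called lower in mQ, and MRPL37 -0.27 in siCTU2, -0.22 in siGL2, -0.30 in mQ and -0.24 in pQ, none called. Outside mQ, none of these 4 mRNAs was called as changed over time on the stable-gene scale. With TMM scaling their log2 changes were above 0 in every condition, from 0.16 to 0.94, and 11 of the 16 values were called.

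A small set of these mRNAs was higher with cycloheximide, a smaller share than among all genes. Its effect was the mean log2 difference of the TCHX arm from the T arm at 3 h and 5 h. In siCTU2, 5 of 72 members were higher with cycloheximide and 0 lower, where 21% and 0.169% of all genes were. In siGL2 4 were higher and 0 lower, against 12.1% and 0.555%. In mQ 2 were higher and 1 lower, against 5.12% and 0.119%, and in pQ 3 and 0, against 12.3% and 0.457%. The members' medians were 0.12, 0.016, -0.06 and -0.00022 in the same order, against 0.22, 0.046, 0.048 and 0.058 over all genes. In pQ, where same-numbered libraries deviated together in all 18 pairs examined, a replicate block gave 6 higher and 1 lower, and with stable genes required to pass at both times there were 1 higher and 13 lower. With TMM scaling there were 2 higher and 9 lower in siCTU2, 3 higher and 2 lower in siGL2, 2 higher and 3 lower in mQ and 4 higher and 2 lower in pQ.

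These counts moved with single replicates. Without replicate 1 they were 0, 1, 0 and 2 in siCTU2, siGL2, mQ and pQ, and without replicate 2 1, 0, 0 and 1. Without replicate 3 they were 5, 12, 14 and 9, of which 1, 4, 1 and 3 were lower. Without the libraries that detected more genes they were 4 in siCTU2, 10 in mQ (9 higher) and 4 in pQ. At 3 h alone 0 members were called in each condition, and after subtracting the difference between arms at 0 h 0, 0, 0 and 2. No all-gene share is set beside these counts or those under other scalings above, so they do not set the members apart.

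MRPS30 and MRPS31 were called higher in all 4 conditions. In pQ, MRPS30 was at 71.1, 73.2 and 56.6% of the T arm 0 h level with cycloheximide at 3 h and at 67.5, 58.1 and 56.0% at 5 h, where the T arm was at 46.1, 46.3 and 40.3% and 35.3, 33.4 and 23.3%. The arms did not overlap at either time. Its cycloheximide effects were 0.82 in siCTU2, 0.79 in siGL2, 0.81 in mQ and 0.79 in pQ (edgeR adjusted p = 0.000908, 0.00232, 0.0173 and 0.000218). MRPS31 was at 54.5, 63.7 and 61.0% with cycloheximide at 3 h and 60.8, 75.5 and 97.9% at 5 h in pQ, against 50.1, 54.5 and 50.2% and 33.4, 34.3 and 46.5% without. Its effects were 0.51 in siCTU2, 0.76 in siGL2, 0.76 in mQ and 0.62 in pQ (edgeR adjusted p = 0.00617, 0.000824, 0.0124 and 0.00215). The direction held with TMM scaling for both mRNAs in all conditions, and MRPS31 was then not called in siCTU2 (0.24, edgeR adjusted p = 0.412). Calls of MRPS30 ended without replicate 1 in siCTU2 (effect 0.83, adjusted p = 0.0636), and without replicates 1 or 2 in siGL2 (effects 0.76 and 0.70, adjusted p = 0.0753 and 0.175) and mQ (effects 0.66 and 0.64, adjusted p = 0.406 and 0.536). In pQ it was called without any of the replicates. Calls of MRPS31 ended without replicate 1 in siCTU2 and mQ (effects 0.45 and 0.75, adjusted p = 0.163 and 0.332), and without replicate 2 in all 4 conditions (effects 0.41, 0.75, 0.73 and 0.60, adjusted p = 0.143, 0.0726, 0.512 and 0.118).

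MRPL46 was called higher in 3 conditions, with effects of 0.44 in siCTU2, 0.54 in siGL2, 0.56 in mQ and 0.53 in pQ, the value in mQ not being called (adjusted p = 0.185). The call ended in siCTU2 without any one replicate (effects 0.44, 0.50 and 0.36, adjusted p = 0.153, 0.055 and 0.0522), and without replicate 1 or 2 in siGL2 (effects 0.47 and 0.49, adjusted p = 0.117 and 0.109) and pQ (effects 0.55 and 0.48, adjusted p = 0.0709 and 0.0899). MRPL44 had effects of 0.66 in siCTU2, 0.56 in siGL2, 0.80 in mQ and 0.60 in pQ and was called in siCTU2 alone. That call was lost without replicate 1 or 2 (effects 0.75 and 0.83, adjusted p = 0.13 and 0.053). Decay and the cycloheximide effect share the T arm libraries at 3 h and 5 h, so a low value there moves both, and the decay of these 4 mRNAs is set beside their cycloheximide effects without a test.

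**Figure D5:**
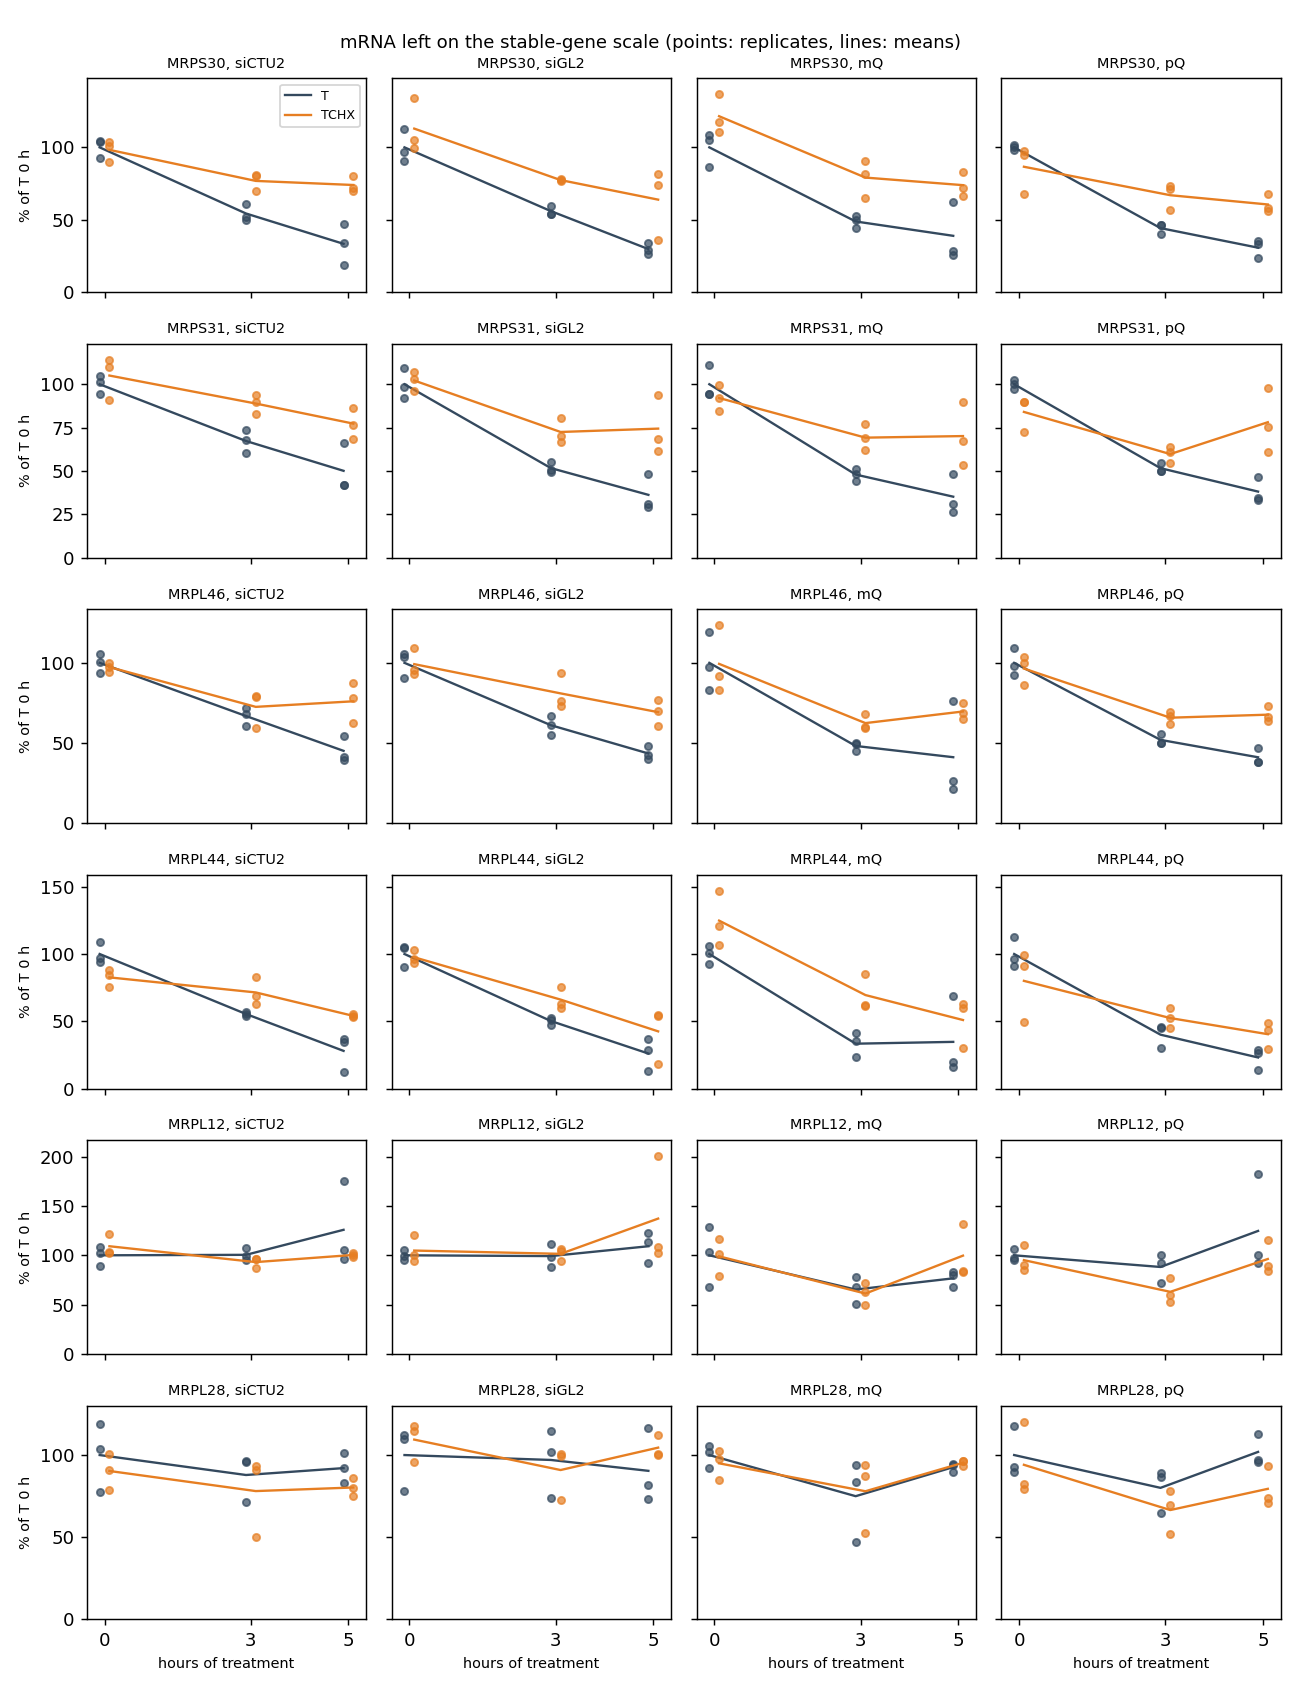
Level of 6 members as percent of the mean T arm 0 h value of the same condition, on the stable-gene scale, at 0, 3 and 5 h without (T) and with cycloheximide (TCHX). Points are replicates and lines join means; MRPS30 fell to 30.7% in the pQ T arm and to 60.5% with cycloheximide at 5 h, while in pQ at 5 h the mean of MRPL12 was 125% and that of MRPL28 102% in the T arm.

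Calls of the other members rested on 1 condition each. MRPS26, a small subunit protein specific to mitochondria, was higher in siGL2 (0.43, edgeR adjusted p = 0.0266) and MRPL58, a peptidyl-tRNA hydrolase built into the large subunit, in siCTU2 (0.34, edgeR adjusted p = 0.0378). MRPS18C, the small subunit homologue of bacterial S18, was lower with cycloheximide in mQ (-0.48, edgeR adjusted p = 0.0205), with effects of -0.054 in siCTU2, -0.43 in siGL2 and -0.40 in pQ. MRPS26 was lost without replicate 1 or 2 (effects 0.39 and 0.53, adjusted p = 0.261 and 0.17), MRPL58 without any one replicate (effects 0.37, 0.42 and 0.23, adjusted p = 0.254, 0.084 and 0.168), and MRPS18C without replicate 1 or 2 (effects -0.57 and -0.54, adjusted p = 0.347 and 0.512).

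A difference between conditions in decay or in the cycloheximide effect was tested as an interaction term over the 36 libraries of each experiment. For siCTU2 against siGL2, 0 of 72 members differed in decay and 0 in the cycloheximide effect with edgeR, where 0.105% and 0.379% of all genes did. DESeq2 also called 0 in each, and 0 and 0 members had an unadjusted p under 0.05. For mQ against pQ, 0 members differed in either with edgeR and 0 with DESeq2, where 0% of all genes differed in decay and 0% in the cycloheximide effect. There 3 and 1 members had an unadjusted p under 0.05. Without replicate 3, 14 members had a higher and 2 a lower log2 change over time in mQ than in pQ, where 3.48% and 3.33% of all genes did. In the same fit 1 member had a higher cycloheximide effect in mQ, against 2.1% of all genes. The T arm values at 0 h enter both this comparison and that of the levels at 0 h. For MRPS30 the difference in cycloheximide effect was 0.036 ± 0.23 (SE) between siCTU2 and siGL2 and 0.019 ± 0.22 between mQ and pQ.

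The translation-dependent decay (TDD) index takes the level with cycloheximide, subtracts the level without it at that time point and divides by the level at 0 h. That 0 h level was the mean of the T and TCHX libraries of the replicate. An index above 0 means more mRNA left with cycloheximide. Between siCTU2 and siGL2 it was higher in siCTU2 for 1 member and lower for 0 at an unadjusted p of at most 0.05, where 7.28% and 0.887% of all genes were. The member was MRPL58, at 0.17 against -0.016, a difference of 0.18 ± 0.055 (SE; linear model, unadjusted p = 0.0129, adjusted p = 0.5). Its call was lost without any one replicate (differences 0.20, 0.20 and 0.14, unadjusted p = 0.0575, 0.0504 and 0.0592), and without replicate 3 the count was 0 higher and 5 lower, where 4.49% and 1.96% of all genes were. Between mQ and pQ it was higher in mQ for 3 members and lower for 0, where 3.48% and 1.3% of all genes were. MRPL28 was at 0.03 against -0.19, a difference of 0.22 ± 0.031 (SE; linear model, unadjusted p = 0.000206, adjusted p = 0.52), MRPS26 at 0.27 against 0.074, a difference of 0.19 ± 0.07 (SE; linear model, unadjusted p = 0.0279, adjusted p = 0.95) and MRPS25 at 0.10 against 0.071, a difference of 0.032 ± 0.013 (SE; linear model, unadjusted p = 0.0465, adjusted p = 0.999). No member passed after adjustment over all genes. Without replicate 3 there were 16 members higher in mQ and 0 lower, against 12.1% and 0.892% of all genes. There was 1 without replicate 1 and 1 without replicate 2. MRPS26 was lost without replicate 1 or 2 (differences 0.25 and 0.20, unadjusted p = 0.0678 and 0.121), and so was MRPS25 (differences 0.025 and 0.023, unadjusted p = 0.223 and 0.302). With TMM scaling 1 member was higher and 3 lower in siCTU2, and 0 were higher and 7 lower in mQ. When each arm was taken over its own 0 h library, most members called between mQ and pQ were lower in mQ. The direction in mQ thus depended on the 0 h level used. Counts with TMM scaling or with own 0 h libraries have no all-gene share beside them, so they do not set the members apart.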

How the data were processed

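The authors trimmed reads with fastp 0.20.1, mapped them to GRCh38.p13 with HISAT2 2.2.1 and counted them per gene with HTSeq 0.13.5, as the submitters' processing notes and the study's methods state. The deposited values are raw counts, with all 72 columns matched to samples by their titles. No molecular identifiers were stated, so counts may hold PCR copies. CPM were computed from the counts.

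At 0 h, counts were tested with edgeR 4.0.16 in R 4.3.3 (filterByExpr, TMM scaling, quasi-likelihood test, 6 libraries, no replicate term), and p-values were adjusted over all genes tested. Over time, scaling followed the study, to 198 stable genes (siRNA experiment) or 82 (medium experiment), with a CPM above 0.2 at 0 h, a CPM at least 1.1 times higher at 3 h or 5 h and a 0 h CPM above 0.1 times the later one. Decay and cycloheximide effects were edgeR contrasts on the 18 libraries of a condition, and differences between conditions on the 36 libraries of an experiment. The TDD index used genes with a mean 0 h count of at least 10 and a linear model (terms: condition, time, replicate), at an unadjusted p of 0.05. Alternatives were DESeq2 1.42.0, limma 3.58.1, other scalings and filters, the TCHX arm at 0 h, a replicate block and left-out libraries. When libraries were left out over time or for the TDD index, size factors of the full set were kept. At 0 h, TMM factors were computed anew from the libraries that remained. Scripts were tested on simulated data. A library's deviation from its group mean correlated with that of the same-numbered library in siCTU2 and siGL2 in the T arm at 0 h (r of 0.10, 0.20 and 0.30) and in pQ over the arms at 3 h and 5 h. For mQ and pQ in the T arm at 0 h the correlations were 0.13, -0.18 and -0.17. The labels give same-numbered libraries a shared code but do not say what it marks. No main edgeR test used a pairing, and the replicate block was run as an alternative.

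Members and lists were chosen with earlier results of these data known. The text names, by rule, the 6 largest called rises and falls at 0 h, the 4 members that fell most and least over time, members called with cycloheximide, in an interaction or in the TDD index, members with extra copies or few counts, and the largest and smallest called change of each related list. RefSeq promoters and GENCODE transcripts were used for sequence.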

Additional observations from a re-analysis of the deposited data

How the results depend on the processing

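Member counts kept their direction and stayed within 1.5 times in 115 of 175 alternative counts. Of the others, 48 moved further and 12 reversed direction. For single named mRNAs in the 0 h comparisons, the cycloheximide effect and the TDD index, 128 of 436 alternative values lost the threshold and 3 changed sign, where decay of single mRNAs is not counted. For the exceptions the cause was not tested. The member counts listed below have no all-gene share beside them, so they do not set the members apart. In the TCHX arm the calls numbered, for 0 h mQ against pQ 5 (0 up, 5 down). With TMM scaling the calls numbered, for decay in siCTU2 17 (15 up, 2 down), cycloheximide in siCTU2 11 (2 up, 9 down), decay in siGL2 10 (8 up, 2 down), decay in mQ 8 (5 up, 3 down), cycloheximide in mQ 5 (2 up, 3 down), decay in pQ 17 (13 up, 4 down), cycloheximide in pQ 6 (4 up, 2 down), TDD index difference of siCTU2 against siGL2 4 (1 up, 3 down) and TDD index difference of mQ against pQ 7 (0 up, 7 down). At 3 h alone the calls numbered, for decay in siCTU2 23 (0 up, 23 down), cycloheximide in siCTU2 0, decay in siGL2 11 (0 up, 11 down), cycloheximide in siGL2 0, cycloheximide in mQ 0 and cycloheximide in pQ 0. With the difference between arms at 0 h subtracted the calls numbered, for cycloheximide in siCTU2 0, cycloheximide in siGL2 0 and cycloheximide in mQ 0. With stable genes passing at both times the calls numbered, for decay in siGL2 65 (0 up, 65 down), decay in mQ 68 (0 up, 68 down) and cycloheximide in pQ 14 (1 up, 13 down). With replicate block the calls numbered, for decay in siGL2 47 (0 up, 47 down) and cycloheximide in pQ 7 (6 up, 1 down). At 5 h alone the calls numbered, for cycloheximide in mQ 0. With no filter the calls numbered, for cycloheximide in mQ 6 (5 up, 1 down), cycloheximide in pQ 5 (4 up, 1 down) and decay difference of mQ against pQ 4 (4 up, 0 down). Without the 3 libraries with extra genes the calls numbered, for cycloheximide in mQ 10 (9 up, 1 down). With each arm taken over its own 0 h library the calls numbered, for TDD index difference of siCTU2 against siGL2 7 (6 up, 1 down) and TDD index difference of mQ against pQ 24 (4 up, 20 down). Leaving out replicates in turn gave these ranges of calls: 0 h siCTU2 against siGL2 16 to 25, 0 h mQ against pQ 14 to 28, decay in siCTU2 19 to 54, cycloheximide in siCTU2 0 to 5, decay in siGL2 8 to 56, cycloheximide in siGL2 0 to 12, decay in mQ 12 to 52, cycloheximide in mQ 0 to 14, decay in pQ 22 to 63, cycloheximide in pQ 1 to 9, decay difference of siCTU2 against siGL2 0 to 0, cycloheximide effect difference of siCTU2 against siGL2 0 to 0, TDD index difference of siCTU2 against siGL2 1 to 5, decay difference of mQ against pQ 0 to 16, cycloheximide effect difference of mQ against pQ 0 to 1 and TDD index difference of mQ against pQ 1 to 16. Among these, the sign changed for MRPL39 (0.089) and MRPL13 (0.019) for mQ against pQ in the TCHX arm, and the TDD index of MRPS25 with each arm over its own 0 h library (-0.024). For decay in mQ, where both were called lower, TMM scaling gave 0.16 for MRPL12 and 0.20 for MRPL48. The replicate block gave 30 calls at 0 h in siCTU2, 21 in mQ, 60, 47, 44 and 65 for decay and 5, 5, 3 and 7 for cycloheximide in siCTU2, siGL2, mQ and pQ, and 0 in the 4 interactions. Same-numbered libraries of the compared conditions correlated above 0.1 in 15 of 18 pairs of siCTU2 and siGL2 and in 12 of 18 of mQ and pQ, and 16 and 13 of the siCTU2 and mQ libraries correlated best with their own number, a hint from the data beside the shared code in the labels. The block changed no call of a member named above in siCTU2 at 0 h. The 6 untested members had too few counts to be tested, and MRPS36 had at most 109 counts in a library.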
